A study of Mus musculus with 2 samples.

Results

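The nuclear-encoded subunits of the mitochondrial respiratory chain and ATP synthase were examined in Ago2 immunoprecipitates of TM4 cells, and most of them gave more reads after transfection of miR-471-5p mimic than after scramble. The genes were taken by symbol (names beginning with Nduf followed by a, b, c, s or v and a digit, Sdha to Sdhd, Uqcr, Cox4 to Cox8, and Atp5), which gave 85 of the 22609 genes in the count tables. Of these, 77 had at least 20 counts over both libraries and were compared with all 12186 genes that passed the same limit. The 77 genes had a median log2 ratio of mimic to scramble of 0.51 (1.43-fold), against -0.00063 for all 12186 genes. Of the 77, 32 (41.6%) were at least 1.5-fold higher in the mimic library, against 11.7% of all tested genes, and 0 were at least 1.5-fold lower, against 8.94%. Respiratory chain transcripts are short. Of the tested genes with the shortest transcripts (345 to 1275 nucleotides), 33.1% were at least 1.5-fold higher and 1.95% at least 1.5-fold lower. With the median of genes of like transcript length subtracted, the median of the 77 was 0.15 and 6 of them were at least 1.5-fold higher, against 8.97% of all genes.

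TM4 is an established mouse line of Sertoli cells, the somatic cells that support germ cells in the testis. Cells of this line were transfected with a miR-471-5p mimic or with a scramble sequence, and after 48 h RNA bound to Ago2, the protein that holds a miRNA against its mRNA targets, was recovered with an Ago2 antibody and sequenced. There was 1 library from the mimic cells and 1 from the scramble cells, so no difference below has a replicate check, and a library of RNA taken before the immunoprecipitation was not analysed here. More Ago2 association, more RNA in the cells and a change in the cells recovered cannot be told apart in such libraries. The 95% intervals given below were made from the part of a gene's counts that came from the mimic library (exact Clopper-Pearson method, carried to the log2 scale), and they cover counting error only. A log2 ratio is that of counts plus 0.5, scaled by the TMM library sizes, and a positive value means more reads in the mimic library.

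The respiratory chain passes electrons from NADH through complex I, and from succinate through complex II, to ubiquinone, complex III, cytochrome c and complex IV, which reduces oxygen. Complexes I, III and IV pump protons across the inner mitochondrial membrane, and complex V, the ATP synthase, uses their return to make ATP. Except for complex II, each complex joins proteins made from mitochondrial DNA to many more made from nuclear genes, most of the latter being small accessory proteins around a few large catalytic ones. Sertoli cells are known for a strongly glycolytic metabolism that supplies lactate to germ cells.

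The libraries held 18628310 (mimic) and 18717225 (scramble) reads on genes, and 3 reads, taken as the floor of detection, correspond to 0.161 and 0.16 CPM (counts per 1000000 gene reads). The 85 genes took 0.709% of the mimic and 0.569% of the scramble gene reads. Of the Sertoli markers, Sox9 (1228 mimic and 1070 scramble counts), Gata4 (341 and 365), Kitl (12245 and 16163), Clu (217 and 163) and Wt1 (73 and 35) were present, while the receptor Fshr was at 0 in both libraries and Amh had 5 counts in each. The smooth muscle and myoid gene Acta2 had 73076 mimic and 101778 scramble counts, whereas the other myoid markers had at most 17. Of the macrophage markers Csf1r had 18 and 25 counts, Cd68 had 8 and 9, and Emr1 and Ptprc were at 0 in both libraries. Of the germ cell markers Ddx4 had 46 and 74 counts, Sycp3 58 and 48 and Prm1 12 and 9. Acrv1 had 2 and 6 and Dazl 1 and 1. Of the Leydig cell markers Star had 60 and 69 counts. Cyp17a1 had 11 and 6, Cyp11a1 6 and 8, Insl3 4 and 5, Hsd3b1 3 and 0, and Lhcgr 0 in both libraries. Whether these markers bear on the respiratory chain genes was not tested.

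The mimic carried the sequence below, given here because the mRNAs it could pair with are judged by it. It is printed from RefSeq (GRCm38.p6, chrX:66792634-66792655, minus strand), 5′ to 3′, with its seed, bases 2 to 8, in capitals.
miR-471-5p: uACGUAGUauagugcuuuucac

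The DNA letters that pair with the whole seed are ACTACGT. In the transcripts of the 85 genes (GENCODE M21, GRCm38), these letters were in the 3′-UTR of 0 genes, against 1.56% of 11752 tested genes with an annotated 3′-UTR. They were in the coding region of 2 of the 85 (2.35%), against 4.34% of 11768 tested genes. The 6-letter match CTACGT was in the 3′-UTR of 4 of the 85 (4.71%) and in the coding region of 5 (5.88%), against 6.76% and 16.3% of tested genes. No match says only that the letters are not in these regions, and the shares were not adjusted for the shorter length of the respiratory chain transcripts.

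Both genes with the 7-letter match are shown with the match in capitals and the coding strand read 5′ to 3′. Sdhd encodes a membrane anchor of complex II, and its match starts at base 338 of the coding region in exon 4 of 4 (chr9:50597221-50597227, minus strand, GRCm38). Uqcrc2 encodes a core protein of complex III, and its match starts at base 246 of the coding region in exon 3 of 14 (chr7:120637976-120637982, plus strand).
Sdhd: agtggttaccgACTACGTtcatggggac
Uqcrc2: acctcacatttACTACGTcttgcatcta

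Sdhd had 2087 mimic and 1473 scramble counts, a log2 ratio of 0.50 (0.40 to 0.60). Uqcrc2 had 5492 and 4993 counts, a log2 ratio of 0.14 (0.08 to 0.19). One of the pair was therefore near the median of the 77 genes and the other below it.

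Over the whole table, 49.9% of tested genes had a log2 ratio above 0, 11.7% were at least 1.5-fold higher, 8.94% at least 1.5-fold lower and 3.96% at least 2-fold higher in the mimic library. Of the 77 respiratory chain genes, 68 (88.3%) were above 0, 32 (41.6%) were at least 1.5-fold higher, 0 at least 1.5-fold lower and 4 at least 2-fold higher. Of the tested genes with the shortest transcripts (345 to 1275 nucleotides), 1.95% were at least 1.5-fold lower. The counting interval lay above 0 for 61 of the 77 genes and below 0 for 4 (Ndufs1, Ndufv1, Sdha and Atp5b), and it lay above 0 for 31.5% of all tested genes. The quartiles of the 77 genes were 0.26 and 0.78, while those of all tested genes were -0.27 and 0.31. Summed over the 77 genes, so that abundant genes weigh most, the log2 ratio was 0.31 (0.30 to 0.32). Near the 1.5-fold limit, Ndufs4 (1.505-fold) and Atp5e (1.504-fold) were just inside, and Atp5g3 (1.482-fold) and Ndufb9 (1.471-fold) just outside.

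**Figure D1:**
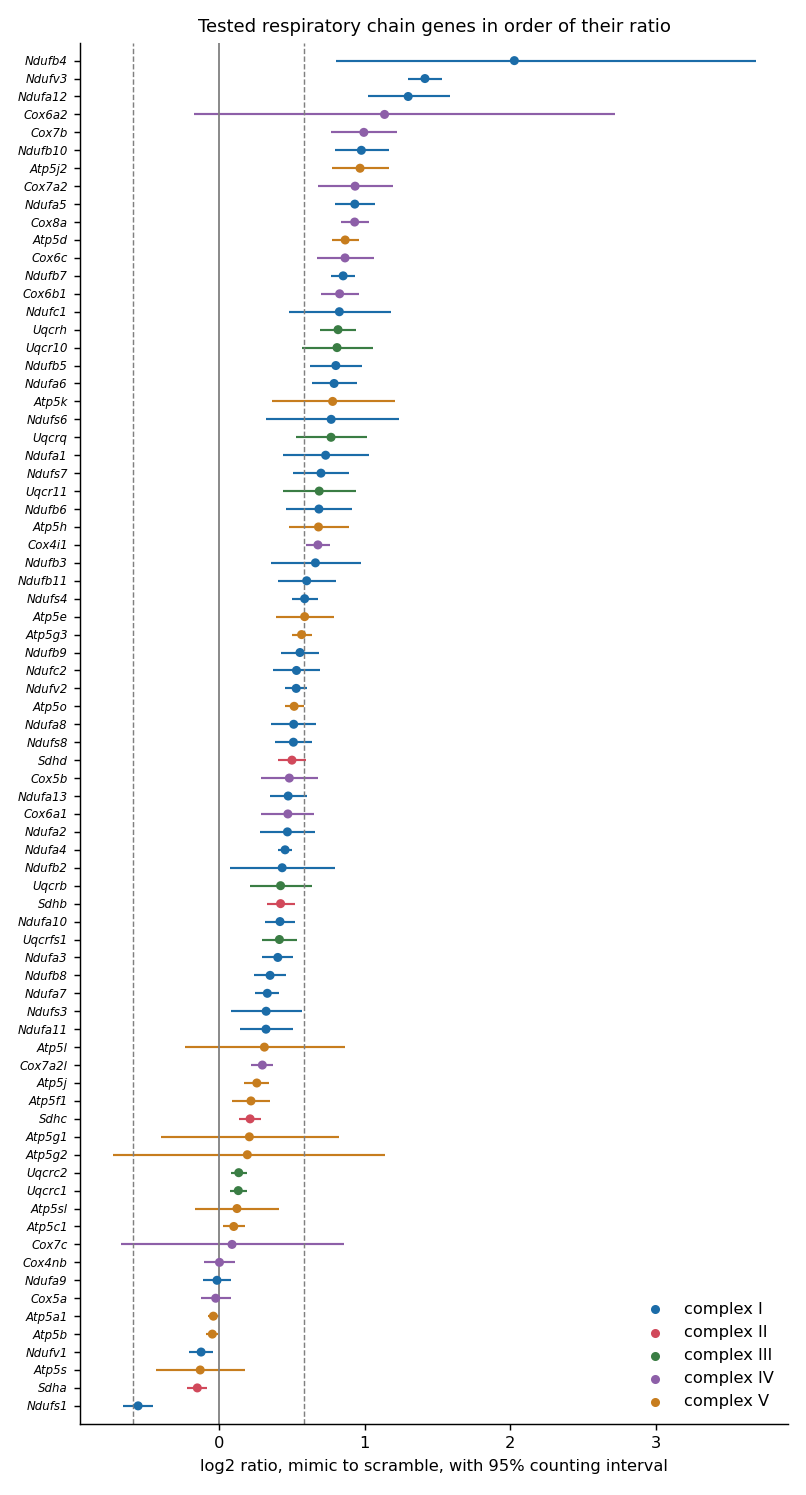
The tested genes, with 1 left out, in order of their log2 ratio of mimic to scramble counts (x axis), coloured by complex, with 95% counting intervals as bars and dashed lines at 1.5-fold in each direction. The genes run from -0.55 (Ndufs1) to 2.03 (Ndufb4), 68 lie above 0, and the widest bars belong to genes with few counts, such as Ndufb4 and Cox6a2.

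The complexes were ordered by median log2 ratio as IV (0.68, 13 tested genes), III (0.56, 8 genes), I (0.53, 35 genes), II (0.32, 4 genes) and V (0.26, 17 genes). Without Atp5s and Atp5sl, which are not known as subunits, and with Ndufab1 added to complex I, the median of complex V was 0.31. With at least 200 counts it was 0.39, above the 0.32 of complex II. At least 1.5-fold higher were 7 genes of complex IV (53.8%), 4 of III (50%), 16 of I (45.7%), 0 of II and 5 of V (29.4%). The share was 11.7% of all tested genes and 33.1% of those with the shortest transcripts (345 to 1275 nucleotides). The log2 ratio of summed counts was 0.50 (0.46 to 0.53) for complex IV, 0.41 (0.39 to 0.43) for complex I, 0.26 (0.23 to 0.30) for complex III, and 0.18 for complexes II and V (0.14 to 0.22 and 0.16 to 0.20). By summed counts complex I thus stood above complex III, whose largest counts came from its core proteins. With genes of like transcript length subtracted, the medians were 0.24 for IV, 0.22 for III, 0.23 for I, 0.026 for II and -0.0097 for V, so that of complex V changed sign. The genes of each complex ranged widely and their ranges overlapped, and the differences between complexes were not tested.

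The subunits were also divided by role, a split that falls within complexes I, III and V, since all 4 genes of complex II were counted as core or catalytic and no nuclear gene of complex IV was. The 17 core and catalytic subunits (the 7 core genes of complex I, the 4 Sdh genes, Uqcrc1, Uqcrc2, Uqcrfs1, Atp5a1, Atp5b and Atp5c1) had a median log2 ratio of 0.14, with 11 above 0 and 1 at least 1.5-fold higher. The other 57 subunits had a median of 0.60, with 55 above 0 and 31 at least 1.5-fold higher. The shares at least 1.5-fold higher were 5.88% and 54.4%, against 11.7% of all tested genes. The summed counts gave 0.07 (0.05 to 0.09) and 0.56 (0.54 to 0.57). The remaining 3 genes were taken by symbol only and are not known as subunits: Cox4nb (also Emc8, of the endoplasmic reticulum membrane complex, 0.0045), Atp5sl (0.12) and Atp5s (-0.13).

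**Figure D2:**
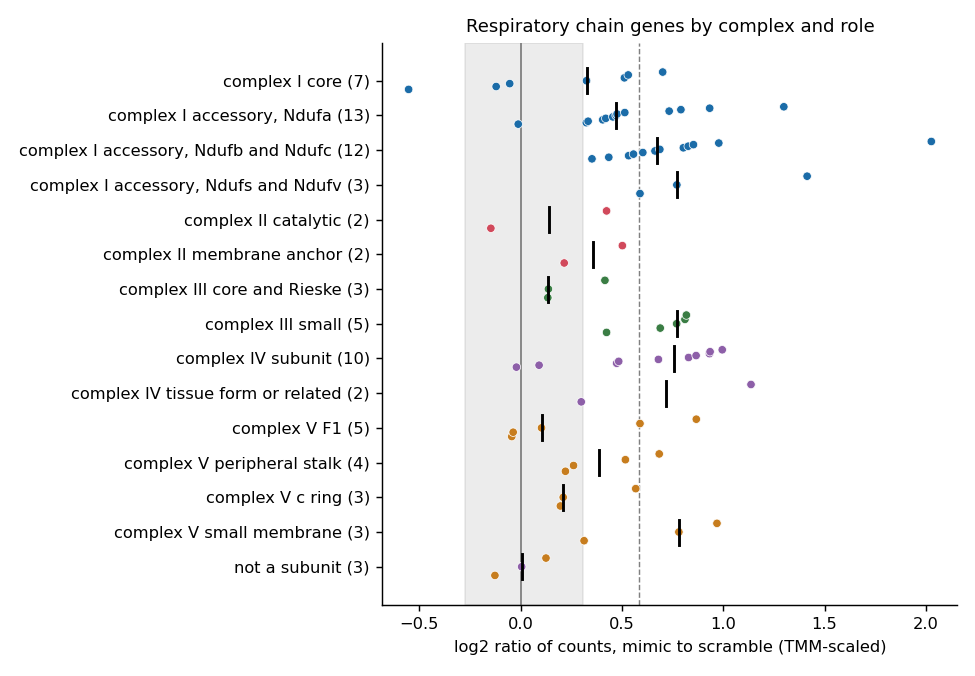
Log2 ratio of mimic to scramble counts (x axis) for each tested gene, by complex and role (number of genes in parentheses), with black bars at the median of each row, a grey band between the quartiles of all tested genes and a dashed line at 1.5-fold higher. Among the rows of subunits, the lowest medians are 0.10 for the F1 part of complex V and 0.14 for the complex III core and complex II catalytic rows. The highest is 0.78 for the small membrane subunits of complex V, and the 3 genes that are not subunits have 0.0045.

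Complex I was represented by 37 genes, of which 35 were tested. Among its core subunits, which hold the flavin and the iron-sulfur clusters, Ndufs1 carries the largest number of clusters and had the lowest value of all 77 genes. It had 1263 mimic and 1852 scramble counts, a log2 ratio of -0.55 (-0.66 to -0.45). Ndufv1, the NADH-binding flavoprotein, had 2439 and 2651 counts (-0.12, -0.20 to -0.04). Both intervals lay wholly below 0, and that of Ndufs1 lay wholly below that of Ndufv1.

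Ndufv2, the partner of Ndufv1 in the NADH-binding module, had 3347 mimic and 2315 scramble counts, a log2 ratio of 0.53 (0.45 to 0.61). Ndufs8, which carries a pair of clusters, had 1236 and 866 counts (0.51, 0.39 to 0.64). Ndufs3, of the module that joins the clusters to the membrane arm, had 316 and 252 counts (0.33, 0.08 to 0.57). Ndufs7, which carries the last cluster before ubiquinone, had 602 and 370 counts (0.70, 0.51 to 0.89) and was the core subunit past 1.5-fold. The core of complex I was thus spread on both sides of 0, although its proteins work at equal numbers in the enzyme, and Ndufv1 and Ndufv2, which sit side by side, had intervals that did not overlap.

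The 28 accessory subunits of complex I surround the core, and 27 of them were above 0. Of the 28, 15 (53.6%) were at least 1.5-fold higher, against 11.7% of all tested genes and 33.1% of those with the shortest transcripts. The 13 tested Ndufa genes had a median log2 ratio of 0.47, with 4 (30.8%) at least 1.5-fold higher. The 12 Ndufb and Ndufc genes, whose products lie in the membrane arm, had a median of 0.68, with 8 (66.7%) at least 1.5-fold higher. Ndufs4, Ndufs6 and Ndufv3, accessory proteins of the NADH-binding arm, were all at least 1.5-fold higher.

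Ndufv3 stood out among genes with many counts. It had 2168 mimic and 813 scramble counts, a log2 ratio of 1.41 (1.30 to 1.53), and it shared no 50-base stretch with another gene in the reference. In the same arm, Ndufs6 had 113 and 66 counts (0.77, 0.32 to 1.24) and Ndufs4, loss of which is known to cause mitochondrial encephalopathy in mice, had 2511 and 1668 counts (0.59, 0.50 to 0.68). The interval of Ndufv3 lay wholly above those of both.

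Among the Ndufa genes, Ndufa12 had 365 mimic and 148 scramble counts, a log2 ratio of 1.30 (1.02 to 1.59), although 53.8% of the 50-base stretches of its transcript were also found at another locus. Ndufa5 had 1240 and 649 counts (0.93), Ndufa6 963 and 556 (0.79) and Ndufa1 258 and 155 (0.73). Ndufa4, now mostly placed in complex IV, was the most abundant subunit gene of those named Nduf, with 7678 and 5600 counts (0.46, 0.40 to 0.50). Ndufa9, which lies next to the ubiquinone site and is among the larger accessory subunits, had 1828 and 1843 counts (-0.01, -0.11 to 0.08) and was the accessory gene of complex I without a positive ratio. The remaining Ndufa genes (Ndufa2, Ndufa3, Ndufa7, Ndufa8, Ndufa10, Ndufa11 and Ndufa13) lay between 0.32 and 0.51.

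Among the genes of the membrane arm, Ndufb10 had 714 mimic and 362 scramble counts (0.98, 0.80 to 1.17). Ndufb7 had 3392 and 1877 counts (0.85, 0.77 to 0.94), the narrowest interval of those past 1.5-fold in this arm. Ndufb5 had 709 and 406 counts (0.80), and Ndufc1 had 192 and 108 (0.83). The lowest of the arm was Ndufb8, with 1493 and 1169 counts (0.35, 0.24 to 0.46), so that every tested Ndufb and Ndufc gene was above 0. Ndufb4 had the highest log2 ratio of all 77 genes, 2.03, but on 26 and 6 counts, and its interval ran from 0.80 to 3.69.

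Complex II, succinate dehydrogenase, belongs to both the respiratory chain and the citric acid cycle and has 4 subunits, all made from nuclear genes. Sdha, the flavoprotein that oxidizes succinate, had 3216 mimic and 3560 scramble counts, a log2 ratio of -0.15 (-0.22 to -0.08). Sdhb, the iron-sulfur subunit that receives its electrons, had 2112 and 1573 counts (0.42, 0.33 to 0.52). The membrane anchors Sdhc and Sdhd, which bind ubiquinone and heme, had 2965 and 2553 counts (0.22, 0.14 to 0.29) and 2087 and 1473 counts (0.50). Sdha was the one subunit with fewer reads in the mimic library, and its interval did not overlap those of the other 3.

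Complex III, the cytochrome bc1 complex, was split between its large and small subunits. The core proteins Uqcrc1 (5110 mimic and 4656 scramble counts, 0.13, 0.08 to 0.19) and Uqcrc2 (0.14) differed by less than their intervals. Uqcrfs1, the Rieske iron-sulfur protein that passes electrons on to cytochrome c1, had 1347 and 1009 counts (0.42, 0.30 to 0.54). The 5 small subunits had a median of 0.77. Against 11.7% of all tested genes, 4 of them (80%) were at least 1.5-fold higher. Of these, Uqcrh, the hinge protein beside cytochrome c1, had 1427 and 809 counts (0.82, 0.69 to 0.94). Uqcr10 had 390 and 222 counts (0.81), Uqcrq 379 and 222 (0.77), Uqcr11 347 and 215 (0.69) and Uqcrb, which lies by a ubiquinone site, 431 and 321 (0.42, 0.21 to 0.64). Cytochrome c1 itself, Cyc1, has a symbol outside the rule and had 2277 and 1568 counts (0.54, 0.44 to 0.63).

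In complex IV, cytochrome c oxidase, the catalytic proteins are made in mitochondria. Apart from Cox4nb, which is not known as a subunit, the 19 nuclear genes here encode supernumerary subunits, their tissue forms and relatives. Of the 10 tested subunits of the common enzyme, 9 were above 0, and the median log2 ratio of the 10 was 0.75. Against 11.7% of all tested genes, 6 of them (60%) were at least 1.5-fold higher. Cox7b had 485 mimic and 243 scramble counts (0.99, 0.77 to 1.22). Cox7a2 had 364 and 190 counts (0.94), Cox8a 2586 and 1355 (0.93, 0.84 to 1.03) and Cox6c 615 and 337 (0.87, 0.67 to 1.06). Cox6b1, which faces cytochrome c, had 1319 and 742 counts (0.83, 0.70 to 0.96), and Cox4i1, through which ATP regulates the enzyme, had 3178 and 1983 (0.68, 0.60 to 0.76). Cox4i1 was the lowest of these 6, and its interval did not overlap that of Cox8a.

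Cox5a, which joins early to Cox4i1 in assembly, had 1525 mimic and 1547 scramble counts (-0.02, -0.12 to 0.08). Its interval lay wholly below that of Cox4i1. Cox5b (504 and 360 counts, 0.48) and Cox6a1 (599 and 431 counts, 0.47) lay between, and Cox7c had 32 and 30 counts, too few to place it (0.09, -0.67 to 0.86). Cox7a2l, a relative of Cox7a2 that links complexes III and IV into supercomplexes, had 3205 and 2603 counts (0.30, 0.22 to 0.37), the most reads of complex IV. It lay below Cox7a2, and their intervals did not overlap, although 17.7% of the 50-base stretches of Cox7a2l were also found at another locus.

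The 10 tested common forms of complex IV subunits had 11207 mimic and 7218 scramble counts in sum. All 13 tested genes of complex IV had 15825 and 11220, and the muscle, lung and testis forms had few. Cox6a2, the heart and skeletal muscle form, had 16 mimic and 7 scramble counts (1.14, -0.17 to 2.72), and its exons overlap those of another gene over 10.3% of the transcript. Cox7a1, a muscle form, had 13 and 2 counts and was under the limit of 20. The testis forms Cox6b2 (1 and 3 counts), Cox7b2 (1 and 2) and Cox8c (11 and 3), the lung form Cox4i2 (0 and 0) and the muscle form Cox8b (0 and 0) were under it too. Most of these were at or near the floor of 3 reads, and no fold is given for them. Ndufa4l2, a hypoxia-regulated relative of Ndufa4, had 3 and 1 counts.

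In complex V the genes of the catalytic F1 part were spread from -0.04 (Atp5b) to 0.87 (Atp5d). Atp5a1 and Atp5b, the alpha and beta subunits that make up the catalytic ring, were the most abundant genes by counts, with 10834 mimic and 11111 scramble counts (-0.04, -0.07 to 0.001) and 10290 and 10607 counts (-0.04, -0.08 to -0.01). Atp5c1, the central shaft, had 2831 and 2635 counts (0.10, 0.03 to 0.18). At the foot of the same shaft, the small subunits Atp5d and Atp5e had 2666 and 1461 counts (0.87, 0.77 to 0.96) and 521 and 346 counts (0.59, 0.39 to 0.79). Within F1, the ring and shaft genes were thus close to 0 and the small foot genes at least 1.5-fold higher.

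The peripheral stalk, which keeps F1 from turning, had 4 tested genes, all above 0. Atp5o had 4758 mimic and 3323 scramble counts (0.52, 0.45 to 0.58), Atp5h 505 and 314 (0.68, 0.48 to 0.89), Atp5j 2458 and 2050 (0.26, 0.18 to 0.35) and Atp5f1 1046 and 897 (0.22, 0.09 to 0.35). Of the small membrane subunits, Atp5j2 had 643 and 328 counts (0.97, 0.78 to 1.17), Atp5k 131 and 76 (0.78, 0.37 to 1.21) and Atp5l 66 and 53 (0.31, -0.23 to 0.86). Atp5j2 was the highest of the 17 genes of complex V.

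The c subunit, whose copies form the rotating ring in the membrane, is encoded by 3 genes that make the same mature protein behind different import sequences. Atp5g3 had 4191 mimic and 2826 scramble counts (0.57, 0.50 to 0.64). Atp5g1 had 51 and 44 counts (0.21, -0.40 to 0.83) and Atp5g2 had 23 and 20 (0.20, -0.73 to 1.14). Nearly all counted c subunit reads fell on Atp5g3, while 87.4% of the 50-base stretches of Atp5g2 were also found at another locus. The ratios of Atp5g1 and Atp5g2 could not be separated from that of Atp5g3 or from 0 at their depth.

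Levels per transcript length (RPKM, gene reads per kilobase of transcript and per 1000000 gene reads) allowed the genes to be compared with each other. Scramble levels ran from 0.33 (Ndufb4) to 490 (Ndufa4), with a median of 38.2 over the 77 genes, and the median mimic level was 53.1. After Ndufa4 came Atp5b (296), Atp5a1 (240), Ndufa7 (223), Atp5o (212) and Atp5g3 (209) in the scramble library. Within complex I, Ndufb4 (0.33) and Ndufa7 (223) thus differed in level by orders of magnitude in these counts. Of the 50-base stretches of Ndufb4, 37.0% were also found at another locus.

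Small mitochondrial genes are known to have many processed pseudogenes, and a read that aligns to a gene and its copy alike is by default counted on neither by HTSeq. Reads aligned to more than 1 place made up 39.8% of all mimic and 35.6% of all scramble entries. The share of 50-base stretches of each transcript that also occur in a transcript of another locus was therefore computed in GENCODE M21, with 50 bases standing in for a read length that is not stated. It was above 0 for 36 of the 85 genes and above 10% for 18, of which 17 were tested. In the scramble library the 42 tested genes that shared no stretch had a median level of 48.2 RPKM, the 17 above 10% had 22.2, and the 4 above 50% (Atp5g2, Atp5l, Ndufa12 and Cox7c) had 4.09.

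**Figure D3:**
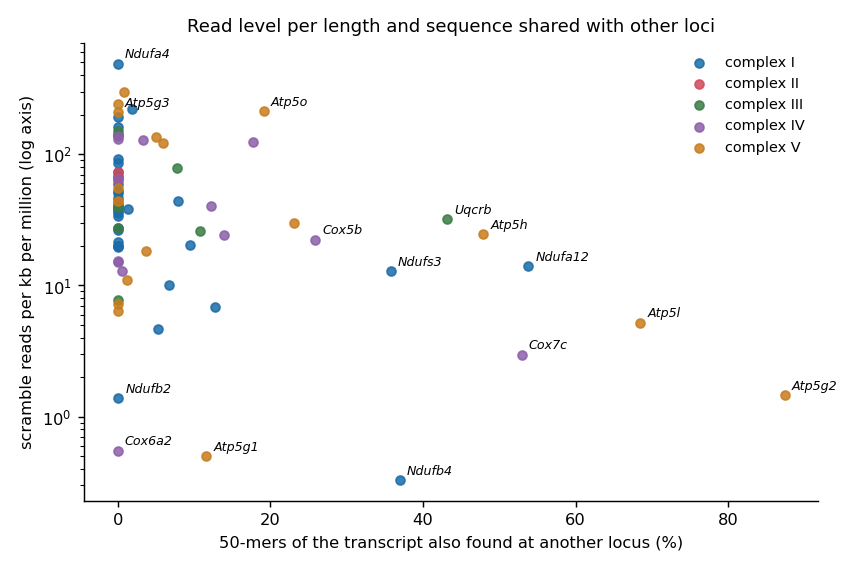
Scramble level of each tested gene in RPKM, labelled as reads per kb per 1000000 gene reads (y axis, log scale), against the percent of 50-base stretches of its transcript found at another locus (x axis), coloured by complex. Atp5g2 (87.4%), Atp5l (68.5%) and Cox7c (53.0%) had low levels, but so did Cox6a2 and Ndufb2, which shared almost none. The level of Ndufb2 (113 scramble counts) was computed over a matched transcript of 4371 nucleotides with a coding region of 318.

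Ndufs5, an accessory subunit of complex I that every cell with the complex needs, was listed at 0 in both libraries, and 31.1% of its 50-base stretches were also in the processed pseudogene BC002163 on chromosome 16. The stretches shown here are coding sequence on the gene's strand that occurs letter for letter at the other locus as well. That of Ndufs5 (chromosome 4) is bases 1 to 50 of its coding region, that of Atp5l (chromosome 9) is bases 1 to 50 and also lies in Gm10221 on chromosome 5, and that of Cox7c (chromosome 13) is bases 31 to 80 and also lies in Gm10012 on chromosome 17.
Ndufs5: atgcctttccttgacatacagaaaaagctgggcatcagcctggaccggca
Atp5l: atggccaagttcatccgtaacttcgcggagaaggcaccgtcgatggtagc
Cox7c: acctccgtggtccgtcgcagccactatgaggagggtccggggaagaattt

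Log2 ratios were closer together than levels between genes with and without such copies, and that difference was not tested. The 17 genes above 10% had a median log2 ratio of 0.47, with 6 (35.3%) at least 1.5-fold higher. The 42 genes without a shared stretch had 0.54, with 19 (45.2%) at least 1.5-fold higher. Of all tested genes, 11.7% were. Ndufb4, the highest of all, shared 37.0% of its stretches and Ndufa12 53.8%, so fewer positions of either transcript could give a uniquely aligned read of that length. The exons of 19 of the 85 genes overlapped those of another coding gene, and without a stated strand setting reads from such overlaps cannot be assigned. The largest overlaps among the genes past 1.5-fold were those of Ndufb6 (39.0% of its transcript) and Cox4i1 (20.1%).

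Short transcripts had higher ratios throughout the table. The 77 genes had a median transcript of 865 nucleotides and a median coding region of 435, against 3016.5 and 1416 for tested genes. The tested genes were divided into 10 bins of like size by transcript length. Those of the shortest bin (345 to 1275 nucleotides) had a median log2 ratio of 0.44, and those of the longest bin had -0.25. In the shortest bin 88.1% were above 0, 33.1% at least 1.5-fold higher and 1.95% at least 1.5-fold lower. The shortest bin held 54 of the 77 genes, which had a median of 0.60, with 53 above 0 and 28 at least 1.5-fold higher. Of these 54, 40 were above the median of their bin. In the next bin (1276 to 1750 nucleotides), 13 of the genes had a median of 0.22, against 0.23 for all genes of that bin.

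**Figure D4:**
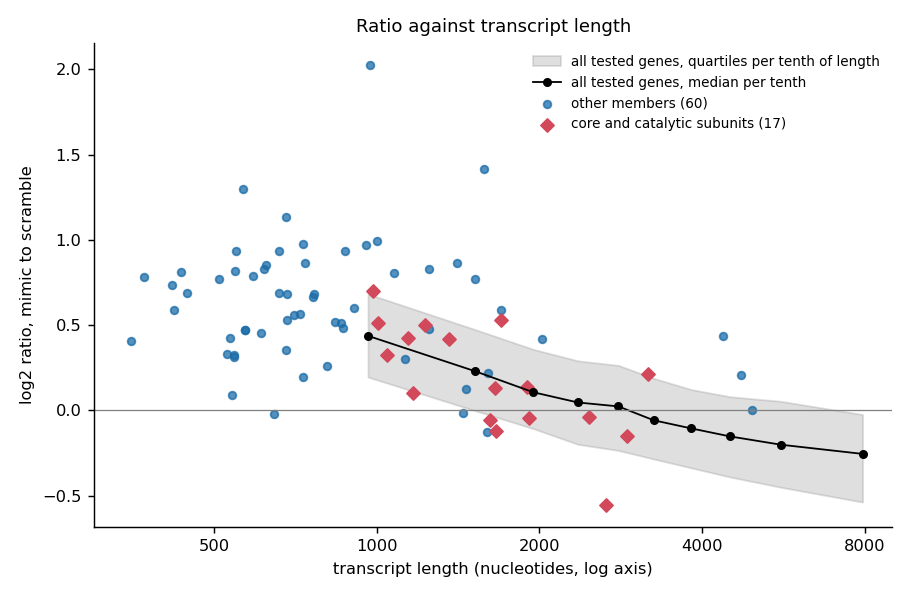
Log2 ratio of mimic to scramble (y axis) against transcript length in nucleotides (x axis, log scale) for the 77 genes, with core and catalytic subunits as red diamonds and the others as blue circles, over the median (black) and quartiles (grey) of all tested genes in 10 bins of length. The black line falls from 0.44 in the shortest bin to -0.25 in the longest, and the blue circles crowd at short lengths, where 40 of all 54 genes lie above the median of their bin.

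With the median of the length bin subtracted from each gene, 52 of the 77 genes were above 0, and the share at least 1.5-fold higher was no longer above that of all 11768 tested genes with a length. The 6 still past 1.5-fold were Ndufb4, Ndufv3, Ndufa12, Cox6a2, Atp5d and Ndufb2. Core and catalytic subunits, whose median transcript was 1653 nucleotides, had -0.08, and the other 57 subunits, whose median was 704, had 0.25. By coding length the same values were 0.10 and 0.30. Length thus moved together with role among these genes, and what part of the difference between the roles belongs to each was not tested. Across the 77 genes the Spearman correlation of log2 ratio with transcript length was -0.41 and with coding length -0.52, and across the 11768 genes it was -0.44 and -0.40. Genes of 1 pair of libraries share depth and preparation, so these are descriptions.

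Some members went against their length. Ndufs1 (2661 nucleotides) was 0.58 below the median of its bin on the log2 scale, the lowest of the 77 after this step, and Cox5a (645 nucleotides) was 0.46 below. Ndufv3 (1582 nucleotides) was 1.18 above, and Atp5d (1410 nucleotides) 0.64 above. Ndufb2 and Atp5g1 were matched to annotated transcripts of 4371 and 4715 nucleotides with coding regions of 318 and 411, so their place by transcript length and by coding length differs.

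Other gene groups were set beside these genes for scale, without a test of any difference. Of all tested genes, 11.7% were at least 1.5-fold higher. Cytosolic ribosomal proteins, which are short and abundant too (76 tested), had a median log2 ratio of 0.55 with 36 at least 1.5-fold higher, and 0.23 after the length step. Mitochondrial ribosomal proteins, which translate the mitochondrial share of the chain (75 tested), had 0.40 with 22 at least 1.5-fold higher, and 0.16 after it. Constitutive proteasome subunits (14 tested) had 0.34 with 4 at least 1.5-fold higher, and -0.05 after it. On both scales the respiratory chain genes, at 0.51 and 0.15, lay within the range of these 3 groups.

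**Figure D5:**
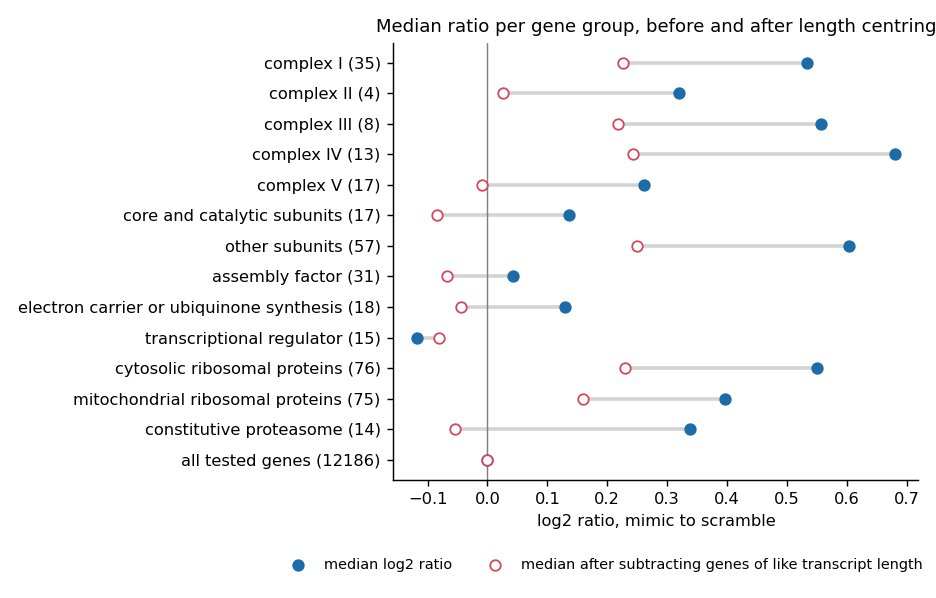
Median log2 ratio of mimic to scramble (x axis) per gene group (number of tested genes in parentheses) as counted (filled blue) and with the median of genes of like transcript length subtracted (open red). Complex IV moves from 0.68 to 0.24 and complex V from 0.26 to -0.0097, while assembly factors and transcriptional regulators lie near or below 0 on both scales.

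Genes that build or regulate the chain were read from lists of known members. Of the assembly factors, which insert cofactors and join subunits but stay out of the finished enzymes, 31 were tested, with a median of 0.04. Of these 31, 3 (9.68%) were at least 1.5-fold higher and 3 at least 1.5-fold lower. The shares of all tested genes were 11.7% and 8.94%. The highest was Ndufaf2, which helps to finish complex I, with 329 mimic and 111 scramble counts (1.56), and the lowest was Atpaf1, which assists F1, with 63 and 113 counts (-0.84). Of the genes for electron carriers and ubiquinone synthesis, 18 were tested, with a median of 0.13. Against 11.7% of all tested genes, 1 of these 18 (5.56%) was at least 1.5-fold higher. That was Cycs, somatic cytochrome c, on 24 and 5 counts (2.15, 0.84 to 4.01), and the lowest was Etfdh, which feeds electrons from fatty acid oxidation to ubiquinone (882 and 1260 counts, -0.51).

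Of the transcriptional regulators of the chain, all 15 present were tested, with a median of -0.12. At least 1.5-fold higher or lower were 0 of them, against 11.7% and 8.94% of all tested genes. Polrmt, the mitochondrial RNA polymerase, was the highest, with 309 mimic and 265 scramble counts (0.22), and Gabpa, a subunit of the ETS factor also called NRF2, was the lowest, with 2032 and 2942 (-0.53). For subunits encoded in mitochondrial DNA, 26 symbols were looked for, and 0 of them were among the counted genes.

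Nuclear genes for the chain are known to be served by the factors NRF1, GABP of the ETS family, and YY1, and their core letters were looked for on both strands from 250 bases before to 50 after the start in RefSeq promoters (GRCm38.p6), which were matched for 69 of the 85 genes. The NRF1 letters GCGCATGC, which may overlap themselves on the opposite strand, were in 10 of 69 promoters (14.5%), against 6.25% of 8651 tested genes and 3.05% of all 27025 promoters. The ETS letters CCGGAAG were in 16 (23.2%), against 20.02% and 9.93%. The YY1 letters AAGATGGC were in 11 (15.9%), against 5.32% and 3.19%. These matches are letters in a window and not sites shown to be bound.

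A pair of promoter windows with the NRF1 letters upstream of the start is shown to make the pattern visible, 5′ to 3′ on the gene's strand with the match, here its reverse complement, in capitals. In Ndufa6 the match begins at position -83 from the start (chr15:82354347-82354394, minus strand), and in Sdhb at -54 (chr4:140961197-140961244, plus strand). Ndufa6 was at least 1.5-fold higher in the mimic library and Sdhb was not.
Ndufa6: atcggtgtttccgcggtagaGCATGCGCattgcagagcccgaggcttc
Sdhb: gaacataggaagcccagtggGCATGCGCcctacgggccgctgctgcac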

How the data were processed

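Members, gene lists and comparisons were chosen with earlier results of these data known. For each library the authors deposited a table of unnormalized counts by gene symbol, which per the labels came from CASAVA 1.8.2, TopHat2 2.0.8b and HTSeq on mm9. The annotation, strand setting and read length are not given in the sources used here. The 5 summary entries that name no gene (47.3% of mimic and 44.1% of scramble entries) were left out.

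The tested genes, at 20 or more counts in the sum of both tables, were scaled by TMM in edgeR 4.0.16 (R 4.3.3). Ratios used a pseudocount of 0.5. With 1 library per condition no quasi-likelihood fit and no p-value could be had, so called means past 1.5-fold. Lengths, seed matches and shared 50-base stretches came from GENCODE M21 (GRCm38), matched by symbol for all 85 genes and 96.6% of tested genes, with no coordinates converted. Python 3.11.15, numpy 2.4.6, scipy 1.17.1 and pandas 2.3.3 were used.

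Named genes were the highest, lowest and most abundant of each complex, those past 2-fold, the core and catalytic subunits, and genes with tissue forms or copies. Other members were named after their values were seen. Of the genes under this rule, 1 is not reported here by name, though it is counted in every total. The alternatives were other scalings (DESeq2 1.42.0 size factors, total counts), count limits, pseudocounts, fold limits, length centring and summed counts.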

Additional observations from a re-analysis of the deposited data

Results flagged for a closer look

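Reads aligned to more than 1 place, which no comparison uses, made up 39.8% of all mimic entries (14095378) and 35.6% of all scramble entries (11915725). They were singled out because they lie outside the gene counts and were more numerous in the mimic library. How many belong to respiratory chain genes cannot be recovered from the counts.

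Cox7a1, the muscle form of a complex IV subunit, had 13 mimic and 2 scramble counts, a log2 interval of 0.56 to 5.89. It was singled out because it lies below the limit of 20 counts and above the scramble level. The difference has no replicate check.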

How the results depend on the processing

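No paired analysis was possible because there was 1 library per condition, and for the same reason no library could be left out. Of 118 recomputed values, 93 stayed within the counting interval of the middle gene or within 1.5 times the main count, 24 moved and 1 reversed. With genes of like transcript length subtracted, the median log2 ratio of complex V reversed to -0.0097, and the medians became 0.15 for all genes, 0.23 for complex I, 0.026 for II, 0.22 for III and 0.24 for IV, with 6 genes at least 1.5-fold higher. With coding length, added after seeing the data, they became 0.19 for all genes, 0.23 for I, 0.035 for II, 0.30 for III, 0.30 for IV and 0.0080 for V, with 8 higher. By summed counts the values were 0.31 for all genes, 0.18 for II, 0.26 for III and 0.50 for IV. A 2-fold limit gave 4 genes higher, where 3.96% of all tested genes were past it. A limit of 0.32 on the log2 scale gave 55 higher and 1 lower. The share of all tested genes past that limit is not given here. Without a count limit 2 genes (Cox6b2 and Cox7b2) were at least 1.5-fold lower, and with at least 200 counts the median of complex V was 0.39. Of the other alternatives added after seeing the data, leaving out genes that share over 10% of their 50-base stretches gave 0.88 for complex IV, and leaving out genes whose exons overlap another gave 0.42 for complex V. The causes of these moves were not tested beyond the construction of each alternative. Depth limits Ndufb4, Cox6a2, Cox7c, Atp5g1, Atp5g2 and Atp5l, whose intervals spanned more than 1 log2 unit.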
